A study of Mus musculus with 4 samples.

Results

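The genes described here are 38 members of the machinery that copies DNA in S phase, matched by gene symbol among the 20308 genes listed in the deposited tables; all 38 were found. RNA had been sequenced from microglia, the resident macrophages of the brain, isolated from mice on postnatal day 11. The 2 control libraries came from Pd1fl/fl mice, whose Pdcd1 gene (encoding the inhibitory receptor PD-1) carries flanking recombination sites, and the other 2 libraries are labelled Pd1cKO-Cx3, a conditional knockout of the same gene. No label expands the abbreviation Cx3 or says whether the controls carried it or whether each library came from 1 animal or several. The p-values below therefore set the group difference against variation between these libraries only, estimated with information shared across genes. They may not reflect the spread between animals. Values are given in a fixed order: Pd1fl/fl replicates 1 and 2 (called the controls), then the libraries labelled Pd1cKO-Cx3, replicates 2 and 3 (called the labelled knockouts).

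Library totals ran from 14258420 to 15908954 counts, and levels are given as counts-per-million (CPM) values of that total. Pdcd1 itself had 0 and 43 counts in the controls and 179 and 154 in the labelled knockouts, which goes against the labels; the tables give no counts per exon, so a deleted exon was not analysed here. The X-inactivation transcript Xist had 13374 counts in control replicate 1 and 0 in each of the other 3 libraries, while the Y-linked Ddx3y had 0 counts there and 1916, 1891 and 2064 in the others. Control replicate 1 therefore stood apart by sex-linked transcripts, and results are also given without it. Summed over 8 microglial marker genes, the level was 46960 and 46820 CPM in the controls and 42370 and 40060 CPM in the labelled knockouts.

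Before S phase, the MCM2-7 ring is loaded onto replication origins with the help of Cdc6 and Cdt1, and it becomes an active helicase once Cdc45 and the GINS complex bind to it. Primase and DNA polymerases then copy the unwound strands, tethered by the PCNA clamp that replication factor C loads, while ribonucleotide reductase and its partners supply the deoxynucleotides. Transcription of many of these genes is controlled by E2F factors at the boundary between G1 and S, and microglia multiply in the brain during early postnatal life.

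Of the 38 genes, 37 had enough counts to be tested and Fen1 did not. In edgeR's quasi-likelihood test, 0 of the 37 passed an adjusted p of 0.05, against 0.0397% of the 15097 genes tested (6 genes), and the smallest adjusted p among the 37 was 0.438. At an unadjusted p under 0.05, 6 of 37 (16.2%) were higher in the labelled knockouts against 4.97% of all genes, and 0 were lower against 3.12%. The 6 were Mcm7, Cdt1, Pole, Rrm1, E2f2 and Uhrf1. Their number changed when single libraries were left out, with the fewest without labelled knockout replicate 3 and the most without control replicate 2. No share of all genes is given here for those smaller fits, so the changes are not read as particular to the members. DESeq2 called 0 of the 37 and 1.19% of all genes as higher. Fitted log2 differences, labelled knockouts minus controls, were positive for 32 of 37 (86.5%) against 50.7% of all genes, with a median of 0.43 against 0.01 for all genes. The share of counts from mitochondrial genes, a sign of RNA quality, was 1.23% and 1.02% in the controls and 1.48% and 1.60% in the labelled knockouts, and its part in these differences was not tested. In bulk RNA, a larger share of cycling cells and more RNA per cycling cell cannot be told apart.

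Both labelled knockouts were above both controls for 18 of 37 genes (48.6%), against 21.3% of all genes, and both were below for 2 genes, Pcna and Rfc3 (5.41% against 18.8%). The remaining 17 overlapped between groups. The 18 became 20 without control replicate 1 and 28 without control replicate 2. Without labelled knockout replicate 3 the number was 21, against 34.0% of all genes. Without labelled knockout replicate 2 it was 30, against 35.6% of all genes. Fewer libraries have to separate in these counts, and the 21.3% of all genes, from all 4 libraries, is not a matched share for them. Labelled knockout replicate 3 was the highest library for 29 of the 37 and replicate 2 for 4, while control replicate 1 was the lowest for 24. Summed over the members, the level was 1065 and 1314 CPM in the controls and 1401 and 1826 CPM in the labelled knockouts, so the step between the controls was larger than the step from control replicate 2 to labelled knockout replicate 2. The 21 and 30 given above are thus the members for which labelled knockout replicate 2 or replicate 3, taken alone, exceeded both controls. Without control replicate 1 the median log2 difference was 0.26, and without labelled knockout replicate 3 it was 0.32.

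**Figure D1:**
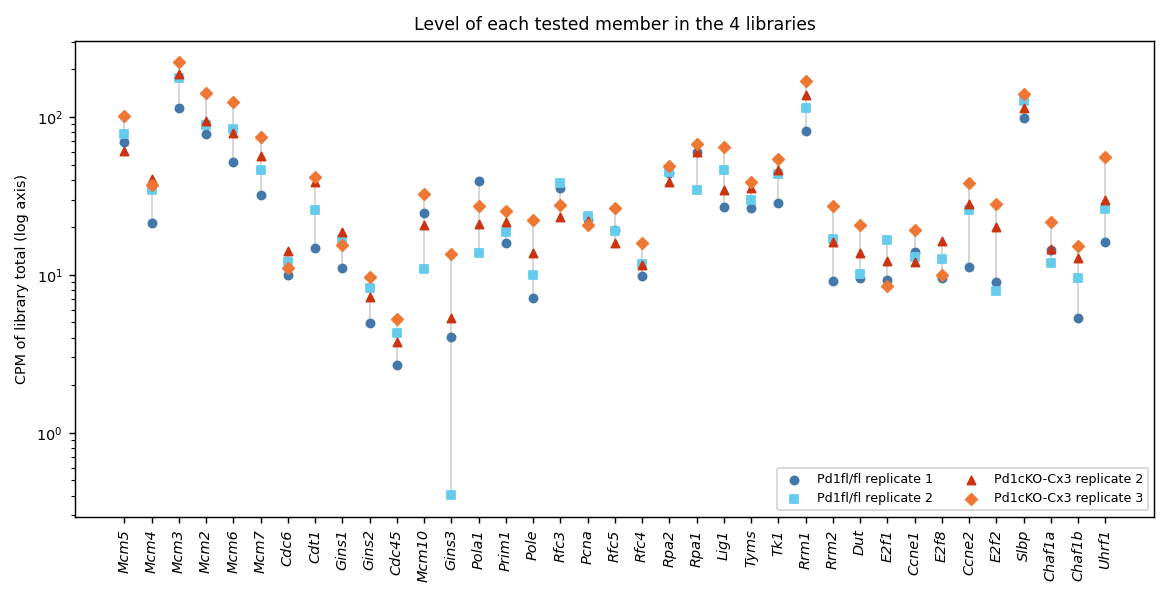
Level of each tested member (horizontal axis, ordered by role) in CPM on a vertical log axis, with 1 marker per library and a grey line joining the lowest and highest. Labelled knockout replicate 3 is the uppermost marker for 29 of 37 genes and control replicate 1 the lowest for 24, and Gins3 in control replicate 2 lies far below its other libraries.

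Several promoters of the set are shown because letters of the kind that E2F factors bind are common among them. RefSeq promoter windows (build GRCm38.p6, 250 bases before to 50 after the start) were matched for 33 of the 38 members and searched on both strands. An E2F-type sequence, counted as TTTCCCGC, TTTGGCGC, TTTCGCGC or TTTGCCGC (forms that can overlap each other, as in Mcm6), was found for 12 of 33 members (36.4%), against 704 of all 27025 genes with a window (2.6%). The letters CCAAT, the NF-Y element, were found for 21 of 33 members (63.6%) against 41.1% of genes, and both kinds together for 9 members (27.3%) against 1.12%. Neither kind alone was particular to the members, and shares for related gene lists are given further below. Below are the E2F-type members with the smallest p, E2f2 (chr4:136172024-136172323, plus strand, the upstream one of its 2 windows) and Cdt1 (chr8:122567765-122568064, plus strand). Mcm6 (chr1:128359656-128359955, minus strand) was chosen after its matches were seen, and Pcna (chr2:132253131-132253430, minus strand) is shown as a member without E2F-type letters. Each is written 5′ to 3′ along the gene's strand, with E2F-type and CCAAT or ATTGG matches in capitals.
E2f2: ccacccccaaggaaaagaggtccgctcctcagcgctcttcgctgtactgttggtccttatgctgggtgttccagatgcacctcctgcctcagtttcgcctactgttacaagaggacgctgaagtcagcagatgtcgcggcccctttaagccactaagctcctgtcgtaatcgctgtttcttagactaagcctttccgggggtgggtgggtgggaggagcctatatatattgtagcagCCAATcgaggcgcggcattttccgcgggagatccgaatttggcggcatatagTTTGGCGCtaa
Cdt1: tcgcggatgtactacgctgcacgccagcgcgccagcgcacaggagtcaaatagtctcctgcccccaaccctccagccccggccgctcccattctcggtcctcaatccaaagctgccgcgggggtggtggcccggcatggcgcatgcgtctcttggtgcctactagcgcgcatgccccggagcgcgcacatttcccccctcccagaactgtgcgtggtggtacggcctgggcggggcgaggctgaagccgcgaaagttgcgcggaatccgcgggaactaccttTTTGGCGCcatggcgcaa
Mcm6: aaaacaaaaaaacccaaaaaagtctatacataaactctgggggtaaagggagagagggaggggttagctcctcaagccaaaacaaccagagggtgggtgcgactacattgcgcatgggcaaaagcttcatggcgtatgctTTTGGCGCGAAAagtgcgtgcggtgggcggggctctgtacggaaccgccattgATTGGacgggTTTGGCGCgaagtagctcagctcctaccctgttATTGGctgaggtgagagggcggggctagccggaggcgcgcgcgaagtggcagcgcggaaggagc
Pcna: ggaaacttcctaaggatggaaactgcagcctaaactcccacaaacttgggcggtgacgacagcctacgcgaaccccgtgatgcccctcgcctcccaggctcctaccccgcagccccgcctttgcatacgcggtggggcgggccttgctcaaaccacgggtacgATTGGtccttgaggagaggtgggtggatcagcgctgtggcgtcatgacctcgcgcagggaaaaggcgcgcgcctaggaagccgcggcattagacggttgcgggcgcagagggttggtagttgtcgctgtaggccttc

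In the E2f2 window the CCAAT lies 13 bases before the start and the E2F-type letters begin 40 bases after it. Cdt1 has its E2F-type letters 33 bases after the start and no CCAAT. The Mcm6 window holds overlapping E2F-type matches on opposite strands beginning 110 and 106 bases before the start, a further match 47 bases before it, and 2 ATTGG elements. Pcna's window holds 1 ATTGG and none of the 4 E2F-type forms, which says only that these letters are not in this window. The 12 tested members with E2F-type letters had a median log2 difference of 0.53, ranging from -0.54 to 2.07, and 6 of the 12 had groups that did not overlap with the labelled knockouts higher. The lowest of the 12 was Rfc3, whose E2F-type matches begin 10 bases before the start and 1 base after it. In Rfc3, as in Pcna, both labelled knockouts were below both controls. The 20 tested members whose windows lacked those letters had a median of 0.41, and 9 of the 20 had such groups. Both counts stand beside 18 of 37 for all tested members and 21.3% of all genes, and the difference between the promoter classes was not tested. A match to these letters is a description of sequence and not a measured binding site.

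The MCM2-7 subunits form the ring that unwinds DNA. All 6 fitted differences were positive, with a median log2 difference of 0.49, and 4 of the 6 genes had both labelled knockouts above both controls, against 21.3% of all genes. The median became 0.23 without control replicate 1, 0.29 without labelled knockout replicate 3 and 0.85 without control replicate 2. Mcm7 had 32.2 and 46.3 CPM in the controls and 57.0 and 75.0 CPM in the labelled knockouts, a log2 difference of 0.74 ± 0.26 (SE, edgeR adjusted p = 0.562). Its groups did not overlap, although the controls were 1.44-fold apart. Mcm2 had 77.9 and 88.5 CPM in the controls and 94.6 and 142 CPM in the labelled knockouts (log2 difference 0.50 ± 0.23 SE, edgeR adjusted p = 0.664). Mcm3 had 114 and 177 CPM, then 187 and 222 CPM (0.48 ± 0.23 SE, edgeR adjusted p = 0.683). For both, labelled knockout replicate 2 lay close above control replicate 2, and replicate 3 was the highest library.

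Mcm4 had 21.3 and 34.3 CPM in the controls and 40.5 and 37.1 CPM in the labelled knockouts, so that here replicate 2 was the highest library (log2 difference 0.47 ± 0.30 SE, edgeR adjusted p = 0.774). Mcm6 had 51.9 and 84.5 CPM, then 79.5 and 125 CPM, and its groups overlapped because labelled knockout replicate 2 lay below control replicate 2 (0.58 ± 0.32 SE, edgeR adjusted p = 0.739). Mcm5 had 69.8 and 78.5 CPM, then 61.2 and 102 CPM, with the labelled knockouts being the lowest and the highest library (0.13 ± 0.27 SE, edgeR adjusted p = 0.967). Without labelled knockout replicate 3 the Mcm5 difference turned to -0.28. The summed level of the 6 subunits was 367 and 509 CPM in the controls and 520 and 703 CPM in the labelled knockouts. Per length, in CPM per kilobase of GENCODE M21 exon length, the control means ran from 7.74 for Mcm4 through 8.86 for Mcm7, 11.96 for Mcm2, 14.6 for Mcm6 and 18.6 for Mcm5 to 38.8 for Mcm3. The Mcm3 level per length was 5.15, 4.93, 4.42 and 5.73 times that of Mcm4 in the 4 libraries, and this ratio overlapped between the groups.

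Cdt1 and Cdc6 load the ring onto origins. Cdt1 had 14.8 and 25.7 CPM in the controls and 38.9 and 41.8 CPM in the labelled knockouts. The labelled knockouts lay close together and above both controls, and the log2 difference was 0.98 ± 0.32 (SE, edgeR adjusted p = 0.542), with 0.64 to 1.44 when single libraries were left out. Cdc6 had 10.1 and 12.1 CPM, then 14.1 and 11.1 CPM, and its groups overlapped (0.18 ± 0.34 SE, edgeR adjusted p = 0.961).

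Cdc45, the GINS subunits and Mcm10 turn the loaded ring into a moving helicase. Gins3 (chromosome 8, 95633453 to 95645060, as deposited and at the GRCm38 position) had the largest fitted difference of the set, from 64 and 6 counts in the controls and 76 and 209 counts in the labelled knockouts. The controls thus differed 9.96-fold, and the log2 difference of 2.07 ± 1.08 (SE, edgeR adjusted p = 0.716) became 1.22 without control replicate 2 and 4.50 without control replicate 1. Mcm10 had 24.7 and 10.9 CPM in the controls and 20.8 and 32.7 CPM in the labelled knockouts, with control replicate 1 above labelled knockout replicate 2 (0.58 ± 0.46 SE, edgeR adjusted p = 0.838). Among the rest, Gins1 had 11.1, 16.6, 18.7 and 15.4 CPM, Gins2 4.97, 8.28, 7.22 and 9.69 CPM, and Cdc45 2.70, 4.31, 3.79 and 5.23 CPM. Their groups overlapped, with log2 differences from 0.29 to 0.35. The antisense gene Gse1 covers 67.3% of the annotated exon length of Gins2, and no source used here says whether reads were counted by strand.

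Pole, the catalytic subunit of the leading-strand polymerase, had 7.17 and 9.96 CPM in the controls and 13.8 and 22.3 CPM in the labelled knockouts. Its groups did not overlap, and the log2 difference was 1.07 ± 0.39 (SE, edgeR adjusted p = 0.575). Prim1, the small primase subunit that lays down RNA primers, had 16.0 and 18.6 CPM, then 21.5 and 25.3 CPM (0.43 ± 0.27 SE, edgeR adjusted p = 0.773). Pola1, the catalytic subunit of the polymerase that extends those primers, had 39.6 and 13.8 CPM, then 20.9 and 27.4 CPM. Both controls therefore lay outside the range of the labelled knockouts, one on each side, and the log2 difference of -0.15 ± 0.51 (SE, edgeR adjusted p = 0.983) turned to 0.80 without control replicate 1. Pola1 is X-linked, and control replicate 1, the library with Xist counts, was its highest. The part of sex in this level was not tested. The autosomal members Gins3, Mcm10 and Rpa1 were also over 1.5 times higher in control replicate 1 than in replicate 2, while 13 members went the other way.

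Of the clamp and clamp-loader genes, 2 of 4 had negative log2 differences, and the median of 0.01 ran from -0.17 to 0.16 when single libraries were left out. Pcna, which encodes the sliding clamp, had 22.4 and 23.6 CPM in the controls and 21.9 and 20.7 CPM in the labelled knockouts. Both labelled knockouts were slightly lower, and the log2 difference was -0.12 ± 0.25 (SE, edgeR adjusted p = 0.964). Rfc3, a subunit of the clamp loader, had 35.8 and 37.97 CPM, then 23.2 and 27.9 CPM. Its log2 difference of -0.54 ± 0.23 (SE, edgeR adjusted p = 0.649) was the most negative of the set, and it kept its sign without any single library (-0.67 to -0.41). The other loader subunits overlapped between groups, Rfc4 with 9.87, 11.7, 11.6 and 16.0 CPM (0.35 ± 0.34 SE, edgeR adjusted p = 0.888) and Rfc5 with 19.2, 19.0, 15.9 and 26.6 CPM. Among the 50-base stretches of Pcna transcripts, 19.1% occur also in other genes, mainly the pseudogene Pcna-ps2, and 23.3% of those of Mcm7 occur mainly in Gm5487. For Uhrf1 the share is 15.4%, mainly Gm5648, so counts of these 3 members are uncertain where reads could be assigned to a copy. No counts are listed for Pcna-ps2, Gm5487 or Gm5648 in any library.

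Replication protein A coats single-stranded DNA. Its large subunit Rpa1 had 60.0 and 34.6 CPM in the controls and 60.5 and 67.4 CPM in the labelled knockouts, with control replicate 1 nearly level with labelled knockout replicate 2 (0.43 ± 0.29 SE, edgeR adjusted p = 0.799). Rpa2 had 44.4, 44.9, 38.6 and 49.3 CPM, with overlapping groups. Lig1, the ligase that seals Okazaki fragments, had 26.8 and 46.1 CPM, then 34.7 and 64.3 CPM (0.43 ± 0.40 SE, edgeR adjusted p = 0.871), and replicate 2 of the labelled knockouts lay between the controls. Fen1 (chromosome 19, 10199132 to 10204169), the nuclease that trims Okazaki fragments, had 0, 1, 1 and 2 counts. Annotation places the antisense gene Gm10143 over 78.8% of the exon length of Fen1, and Gm10143 had 10, 20, 6 and 21 counts. No source used here says how reads over shared exons were counted.

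Enzymes of deoxynucleotide supply were positive for 5 of 5 genes, with a median log2 difference of 0.63, and 4 of the 5 had both labelled knockouts above both controls, against 21.3% of all genes. The median became 0.34 without control replicate 1 and 0.36 without labelled knockout replicate 3. Rrm1, the large subunit of ribonucleotide reductase, had 81.8 and 114 CPM in the controls and 137 and 168 CPM in the labelled knockouts. Its groups did not overlap (0.63 ± 0.21 SE, edgeR adjusted p = 0.542). Dut, the dUTPase that keeps uracil out of DNA, had 9.49 and 10.1 CPM, then 13.7 and 20.9 CPM (0.81 ± 0.35 SE, edgeR adjusted p = 0.649), with close controls and spread labelled knockouts. Rrm2, the small reductase subunit, had 9.18, 17.0, 16.1 and 27.3 CPM and overlapped. Tyms, thymidylate synthase, had 26.5, 30.02, 35.5 and 38.8 CPM, and Tk1, thymidine kinase, had 28.4, 43.8, 46.2 and 54.4 CPM. In both, the 2 labelled knockouts were the highest libraries. The summed level of the 5 enzymes was 155 and 215 CPM in the controls and 248.6 and 310 CPM in the labelled knockouts.

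**Figure D2:**
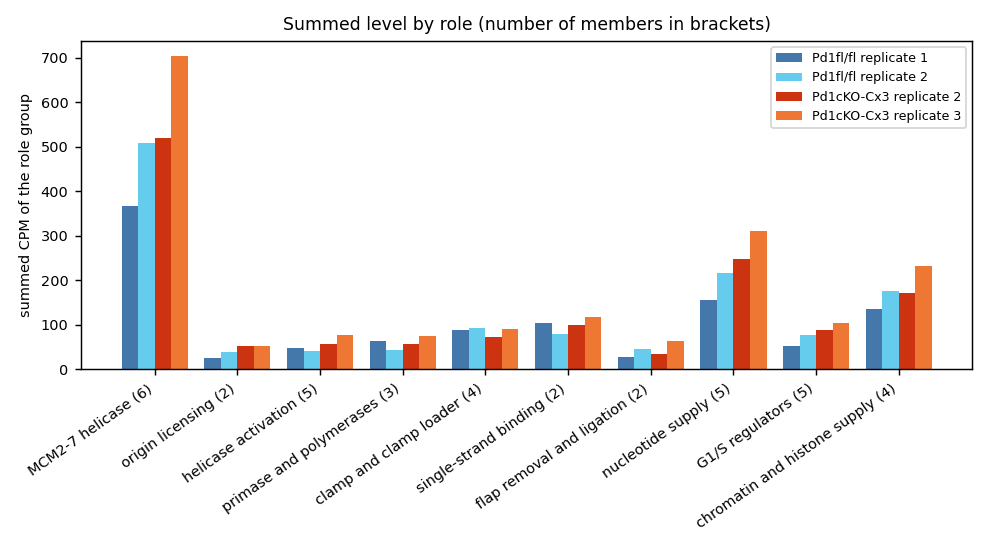
Bars give the summed CPM of the members of each role, 1 bar per library, with the number of members in brackets. For the MCM2-7 genes and the nucleotide enzymes the labelled knockouts lie above both controls, whereas for the clamp and its loader (87.3, 92.3, 72.7 and 91.2 CPM) the groups overlap.

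Among the regulators of S-phase entry, E2f2 (ENSMUSG00000018983, chromosome 4, 136172394 to 136196057), a transcription factor of the activating E2F class, had the smallest p of all 37 genes. It had 8.99 and 7.94 CPM in the controls and 19.99 and 28.2 CPM in the labelled knockouts. The controls were close together and both labelled knockouts lay far above them, with a log2 difference of 1.4995 ± 0.32 (SE, edgeR adjusted p = 0.438) that ran from 1.24 to 1.73 when single libraries were left out. DESeq2 gave E2f2 an adjusted p of 0.0516, just above the threshold. E2f1, also an activator, had 9.24, 16.8, 12.3 and 8.52 CPM, with a log2 difference of -0.33. E2f8, a repressor of the same family, had 9.55, 12.7, 16.4 and 9.94 CPM, with a log2 difference of 0.24. Both of these overlapped between groups. Ccne2, one of the E cyclins that activate CDK2, had 11.3 and 25.9 CPM, then 28.3 and 38.4 CPM (0.83 ± 0.44 SE, edgeR adjusted p = 0.725), with control replicate 2 nearest to labelled knockout replicate 2. Ccne1 had 14.0, 13.1, 12.1 and 19.2 CPM and overlapped.

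Genes that package new DNA or maintain its marks had a median log2 difference of 0.68 over 4 members, which became 0.32 without labelled knockout replicate 3. Uhrf1, which recognises hemimethylated DNA behind the fork, had 16.2 and 26.3 CPM in the controls and 29.95 and 55.8 CPM in the labelled knockouts. Its groups did not overlap, and the log2 difference of 1.005 ± 0.40 (SE, edgeR adjusted p = 0.616) was 0.50 without labelled knockout replicate 3. Chaf1b, a subunit of the histone chaperone CAF-1, had 5.34 and 9.56 CPM, then 12.8 and 15.3 CPM (0.91 ± 0.42 SE, edgeR adjusted p = 0.673). Its partner Chaf1a had 14.4, 11.9, 14.6 and 21.5 CPM, with labelled knockout replicate 2 almost level with control replicate 1. Slbp, which binds the stem-loop of histone mRNAs, had 99.3, 127, 114 and 140 CPM and overlapped. In the GENCODE M21 annotation Ubxn6 covers 52.5% of the exon length of Chaf1a, but that gene model ends beyond the deposited position of Chaf1a (chromosome 17, 56040416 to 56068026), so this share may not hold for the model counted. Smaller overlaps touch Ccne2 (17.4%, Ints8) and Rfc4 (12.7%, Eif4a2).

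**Figure D3:**
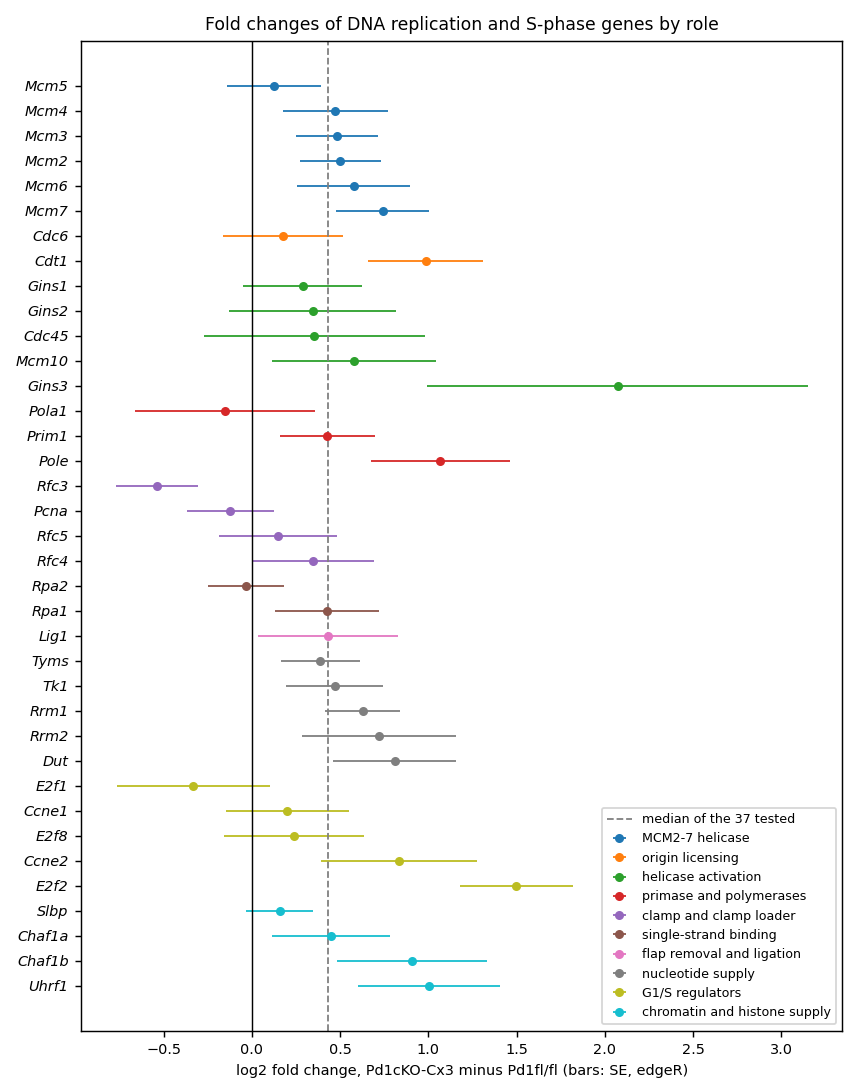
Log2 difference of each tested member, labelled knockouts minus controls, as points coloured by role with bars for the standard error from edgeR; the dashed line is the median of 0.43. Of 37 values 32 are positive, and Gins3 has the highest value (2.07) with the widest bar (1.08).

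Libraries of the same group also differed. The median ratio of the higher to the lower library was 1.44 between the controls, against 1.30 for all genes, and 1.36 between the labelled knockouts, against 1.26. Between the controls 17 of 37 members were over 1.5-fold apart, near the share of all genes (6029 of 15097). Of the 17, 13 were higher in replicate 2 and 4 (Gins3, Mcm10, Pola1 and Rpa1) higher in replicate 1. Between the labelled knockouts 13 of 37 were over 1.5-fold apart, again near the share of all genes (5013 of 15097). Of the 13, 12 were higher in replicate 3, with E2f8 the exception. Over 2-fold apart were 4 members between the controls and 1 between the labelled knockouts, against 3795 and 2922 of all genes. Leaving out each library in turn kept the sign of 27 of 37 members, 25 of them positive. Per length, Mcm3 had the highest control level of the set, at 38.8 CPM per kilobase, and Pole (0.767), Gins3 (0.817) and Cdc45 (0.9999) the lowest of those tested.

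The deposited tables also hold the authors' own comparisons, each of 1 library against 1 library, with a mark for p under 0.05 and an absolute log2 fold change over 1. These comparisons share libraries and carry no replicate error. In the authors' deposited table of labelled knockout replicate 2 against control replicate 1, 4 of 37 listed members (10.8%) were marked higher, against 18.9% of its genes. The authors' deposited table of the same library against control replicate 2 marked 2 of 38 (5.26%) as higher, against 17.2%. For labelled knockout replicate 3, the authors' deposited table marked 13 of 37 (35.1%) as higher than control replicate 1, against 18.3%, and 6 of 38 (15.8%) as higher than control replicate 2, against 16.6%. The authors' deposited tables marked 0 members as lower, against 10.7%, 10.4%, 14.9% and 15.0% of genes in the same order. E2f2 was marked in all 4 of the authors' deposited tables, with log2 fold changes of 1.15, 1.33, 1.65 and 1.83. The share of marked members was thus above the background in 1 of the 4 tables of the authors' deposited comparisons.

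Other genes of the pathway were listed by role. Over 100 further replication, nucleotide, chromatin, G1/S and fork-repair genes tested, 69 log2 differences were positive and 31 negative, with a median of 0.20 that became 0.13 without control replicate 1. In edgeR 0 of the 100 passed an adjusted p of 0.05, 7 had an unadjusted p under 0.05 and were higher, near the 4.97% of all genes, and 0 were lower, against 3.12%. DESeq2 called 0 of the 100, against 1.19% of all genes called higher. Both labelled knockouts lay above both controls for 34 of them and below for 7, against 21.3% and 18.8% of all genes. Timeless, a fork protection factor, had 11.1 and 17.4 CPM in the controls and 39.0 and 27.7 CPM in the labelled knockouts (1.22 ± 0.34 SE, edgeR adjusted p = 0.527). Ccna2, the S-phase and G2 cyclin A, had 15.8 and 16.0 CPM, then 29.3 and 38.03 CPM (1.08 ± 0.26 SE, edgeR adjusted p = 0.482). Both genes had groups that did not overlap. Cdkn1a, which encodes the CDK inhibitor p21, had 99.0 and 128 CPM, then 153 and 200 CPM (0.63 ± 0.20 SE, edgeR adjusted p = 0.542), and its groups did not overlap either. The helicase-nuclease Dna2 (1.04 ± 0.31), the uracil glycosylase Ung (1.13 ± 0.46), the dNTP hydrolase Samhd1 (0.46 ± 0.25), the histone chaperone Asf1b (0.59 ± 0.29) and the Fanconi anaemia protein Fanci (1.33 ± 0.37) had positive log2 differences (SE in each case), with edgeR adjusted p from 0.527 to 0.725. Rad51ap1, a recombination factor, had 0.74 ± 0.45 and Rbbp4, a histone-binding protein, -0.28 ± 0.16 (edgeR adjusted p = 0.763 and 0.745). Among matched genes, E2F-type letters were found for 11 of 33 (33.3%) of the other replication machinery and 6 of 18 (33.3%) of other G1/S control. The counts were 2 of 7 for the chromatin genes, 2 of 10 for fork repair and 0 of 10 for nucleotide supply.

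Mitosis and spindle genes, a neighbouring phase of the cell cycle, had positive log2 differences for 30 of 30, with a median of 0.56. Of these 10 had an unadjusted p under 0.05 and were higher, against 4.97% of all genes, and 0 passed the adjusted threshold in edgeR or in DESeq2. Both labelled knockouts lay above both controls for 19 of the 30, against 21.3% of all genes. Birc5, which encodes survivin, had 66.3 and 68.7 CPM in the controls and 99.6 and 114 CPM in the labelled knockouts (0.65 ± 0.16 SE, edgeR adjusted p = 0.464). Mki67, the proliferation marker Ki-67, had 69.1 and 111 CPM, then 137 and 177 CPM (0.80 ± 0.26 SE, edgeR adjusted p = 0.542), and Top2a, topoisomerase II alpha, 108 and 119 CPM, then 152 and 184 CPM (0.55 ± 0.16 SE, edgeR adjusted p = 0.531). In these 3 genes the groups did not overlap. E2F-type letters were found in 1 of 27 matched promoters of the mitosis genes (3.7%) and CHR letters (TTTGAA or TTCGAA) in 21 of 27 (77.8%), against 24.2% of matched S-phase members and 21.7% of all genes for CHR. CCAAT letters were found in 20 of the 27 (74.1%), against 63.6% of matched S-phase members and 41.1% of all genes. The difference between the S-phase and the mitosis genes in expression was not tested.

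**Figure D4:**
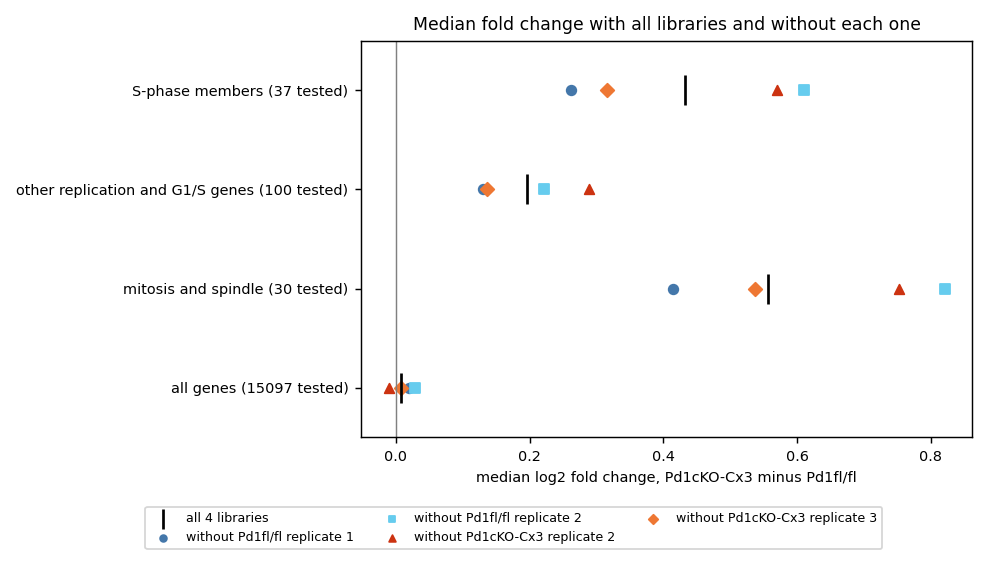
Median log2 difference of the S-phase members, of the other replication and G1/S genes, of the mitosis genes and of all genes tested, with all 4 libraries (bar) and without each library in turn (markers). The members' median stays between 0.26 and 0.61 and that of all genes near 0.

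Markers of other cell types also differed between the libraries. Summed over 8 border-associated macrophage markers, the level was 446 and 545 CPM in the controls and 721 and 713 CPM in the labelled knockouts. Of the 8, 7 had both labelled knockouts above both controls, against 21.3% of all genes. The exception, Mrc1, had 310 and 429 CPM, then 404 and 379 CPM, and overlapped. The 10 endothelial markers summed to 99.3 and 72.7 CPM, then 160 and 118 CPM, with Tie1 and Abcb1a at 0 in control replicate 1. Pecam1 was the 1 endothelial marker with a negative log2 difference (-0.325). Mural and fibroblast markers summed to 103 and 52.5 CPM, then 185 and 187 CPM. Of these sums Rgs5 alone gave 46.2 and 19.72 CPM, then 85.98 and 104.6 CPM. Notch3 and Kcnj8 were at 0 in both controls, and Kcnj8 also at 0 in labelled knockout replicate 3. Of the 9 tested markers of that list, 5 had both labelled knockouts above both controls and 3 overlapped. Cspg4 went the other way, with both labelled knockouts below both controls and a log2 difference of -1.59. Lymphocyte markers, of which 4 of 8 were listed, summed to 0 and 0.135 CPM, then 10.1 and 4.65 CPM. Neuronal and progenitor markers summed to 32.4 and 31.0 CPM, then 63.5 and 39.4 CPM. In these lists the summed levels of the groups did not overlap, while those of oligodendrocyte-lineage markers (697 and 327 CPM, then 1132 and 397 CPM), astrocyte markers (459 and 394 CPM, then 530 and 329 CPM) and erythroid markers (13.1 and 33.9 CPM, then 47.0 and 26.3 CPM) overlapped. Monocyte and neutrophil markers summed to 55.8 and 34.1 CPM, then 95.5 and 86.0 CPM, but Plac8 alone had 16.9 and 17.3 CPM, then 71.1 and 67.4 CPM. Of the 7 tested markers of that list 5 had negative log2 differences, with a median of -0.27, among them Ccr2 (-0.94) and S100a9 (-1.29). Labelled knockout replicate 2 had the higher sum of the labelled knockouts in 8 of these 9 lists, the mural and fibroblast list being the exception, whereas replicate 3 had the higher sum of S-phase members. The part of these cell types in the S-phase levels was not tested.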

How the data were processed

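Microglial mRNA was sequenced in 4 libraries. According to the submitters' processing notes the tools were TopHat2 2.0.12, Bowtie2 2.2.3 and HTSeq 0.6.0 with the genome build mm9; no source used here gives their roles or the strand setting. The deposited tables hold whole-number counts per gene, the authors' log2 fold change and the authors' p-value for 1 library against another, per the file headers. Each library stands in 2 of the 4 tables with identical counts and was taken once. For 3158 genes, missing from both tables of at least 1 library, the missing counts were set to 0. Of 20276 gene identifiers shared with GENCODE M21, 18667 (92.1%) have exactly its GRCm38 position, so the positions are read as GRCm38. Raw counts were tested with edgeR 4.0.16 (R 4.3.3, limma 3.58.1; low counts filtered, TMM factors, quasi-likelihood test, Benjamini-Hochberg adjustment over 15097 genes). DESeq2 1.42.0, other normalizations, no filter, a stricter filter and leaving out each library were alternatives. The procedure was tested on simulated data in which every gene had the same setting of spread between libraries. That test does not measure power or error in these data. Sex was not a term in the fit.

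The members, lists and tests were chosen with earlier results of these data known. Genes with full statistics were the 2 of smallest p per role (1 where a role has 2 members), Mcm2 to Mcm7, Pcna, and the 2 of smallest p at a mean of 1 CPM or more per other list, plus Mki67 and Top2a. Full statistics of Cdc6 and Pola1, and values of further genes and of overlapping partners, were added after they were seen. Promoter sequences are from RefSeq (GRCm38.p6). Protein sequences were not used here.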

Additional observations from a re-analysis of the deposited data

How the results depend on the processing

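With 2 libraries a group, leaving 1 out leaves a lone sample that is assumed to vary like the other group. The number of genes called by edgeR was 6, and became 32 with no filter on low counts, 32 with a filter of at least 5 CPM in at least 2 libraries, 234 with DESeq2, and 4 to 21 (the highest without control replicate 2) when single libraries were left out. S-phase members called numbered 0 in each of these settings. Members higher at an unadjusted p under 0.05 numbered 6, and 1 (without labelled knockout replicate 3) to 13 (without control replicate 2) when single libraries were left out. Members with both labelled knockouts above both controls numbered 18, and 20 to 30 when single libraries were left out, where fewer samples make such a separation easier. The median log2 difference of 0.43 ran from 0.26 to 0.61. Leaving out single libraries reversed the log2 difference of 10 members, which ranged from -0.28 to 0.45 for Mcm5, -0.0039 to 0.35 for Cdc6, -0.72 to 0.80 for Pola1, -0.26 to 0.47 for Rfc5, -0.21 to 0.13 for Rpa2, -0.0729 to 0.87 for Lig1, -0.17 to 0.50 for Ccne1, -0.70 to 0.17 for E2f1, -0.17 to 0.56 for E2f8 and -0.0128 to 0.35 for Slbp. The other normalizations, filters and DESeq2 reversed 0 members; among tested members, Gins3 (6 to 209 counts) and Cdc45 (43 to 81 counts) rest on few counts. The cause of these shifts was not tested. No paired analysis was possible because the groups share only the replicate number 2.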
